A study of Mus musculus with 23 samples.

Results

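The genes described here were 9 markers of lymphocytes, read in tdTomato+ cells sorted from mouse lung tumors. They were the rows named Cd3d, Cd3e, Cd3g, Cd8a, Cd79a, Cd79b, Ms4a1, Nkg7 and Gzma in each of 2 tables of normalized counts. All 9 had a row in both tables, which held 35455 and 35454 genes. 4 of the 9 mark T cells, 3 mark B cells and 2 belong to cytotoxic cells. The rule used gene names and no measured value, though the 9 were proposed with earlier results of these data known.

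All mice carried 1 copy of the CAT allele (genotype label CAT/+), which coexpresses activated BRAF and the red fluorophore tdTomato once CRE recombinase has acted. CRE came from an adenovirus whose Sftpc promoter is active in alveolar type 2 (AT2) cells. In the first table, 6 libraries were from CAT/+ mice (called BRAF here) and 8 from CAT/+; HR/+ mice, which also carry a CRE-activated, mutant Pik3ca allele (called BRAF/PI3K). BRAF had 1 library at 2 weeks after initiation, 3 at 6 weeks and 2 at 12 weeks. BRAF/PI3K had 2, 4 and 2 libraries at the same times. In the second table, all libraries were from 12 weeks, 5 from CAT/+; PGC1a mutant/+ mice (PGC1aHet) and 4 from CAT/+; PGC1a mutant/mutant littermates (PGC1aNull). The mice were age matched and 3 to 4 months old, and their strain background mixed C57BL/6 with 129 and FVB. Mice taken at 12 weeks had received a lower dose of virus than those taken at 2 or 6 weeks, so 12 weeks and the lower dose cannot be told apart. No gate against CD45, the protein of Ptprc on all leukocytes, is given for the sort.

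A T cell receives antigen signals through the CD3 chains of its receptor complex. Cd3d, Cd3e and Cd3g encode the delta, epsilon and gamma chains, and Cd8a encodes the alpha chain of the CD8 co-receptor that binds MHC class I. A B cell signals through CD79A and CD79B, which flank the membrane immunoglobulin, and carries CD20, the product of Ms4a1. NK cells and killer T cells store granules that hold granzyme A (Gzma), a serine protease, and the granule membrane protein NKG7. These genes are not characteristic of AT2 cells. In bulk RNA, fewer cells of a type and less RNA per cell cannot be told apart.

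The sums of normalized counts were 16433820 to 20287296 per library in the first table and 7115753 to 9159567 in the second. The values were not whole multiples of a read, so sequencing depth is unknown. The AT2 marker Sftpc was abundant throughout, from 21173 to 392700 in the first table and from 222448 to 348418 in the second. Ptprc was read in every library as well, at 494 to 3717 and at 131 to 1094. The sex labels of both BRAF/PI3K libraries at 12 weeks went against their Y-linked genes. Kdm5d was 502 in replicate 1, labelled male, and 4728 in replicate 2, labelled female. Ppargc1a, the targeted gene, was 38.0, 51.6, 72.7 and 124 in the 4 PGC1aNull libraries and 75.8, 155, 170, 200 and 561 in the 5 PGC1aHet libraries. The groups overlapped at 1 PGC1aNull library.

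All 9 genes were low but measurable. Their mean normalized counts ran from 35.8 for Nkg7 to 209 for Ms4a1 in the first table and from 9.03 for Nkg7 to 74.2 for Ms4a1 in the second. 7 of the 9 were above 0 in all 23 libraries, whereas Nkg7 and Gzma were each listed at 0 in 2 libraries of each table. Per kilobase of the longest annotated transcript, the mean level over the 14 libraries was highest for Cd79b, at 108 ± 87.3 (SD, n = 14). Gzma followed at 70.2 ± 64.6, Ms4a1 at 68.0 ± 33.3, Cd3e at 56.7 ± 38.6 and Cd3d at 46.5 ± 14.6 per kilobase. Nkg7 stood at 40.7 ± 54.1, Cd79a at 34.5 ± 27.0, Cd3g at 23.8 ± 17.97 and Cd8a at 20.3 ± 14.4 per kilobase. No neighbors in that order differed by more than their spread over libraries. Cd3d varied least and Nkg7 most relative to its mean.

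**Figure D1:**
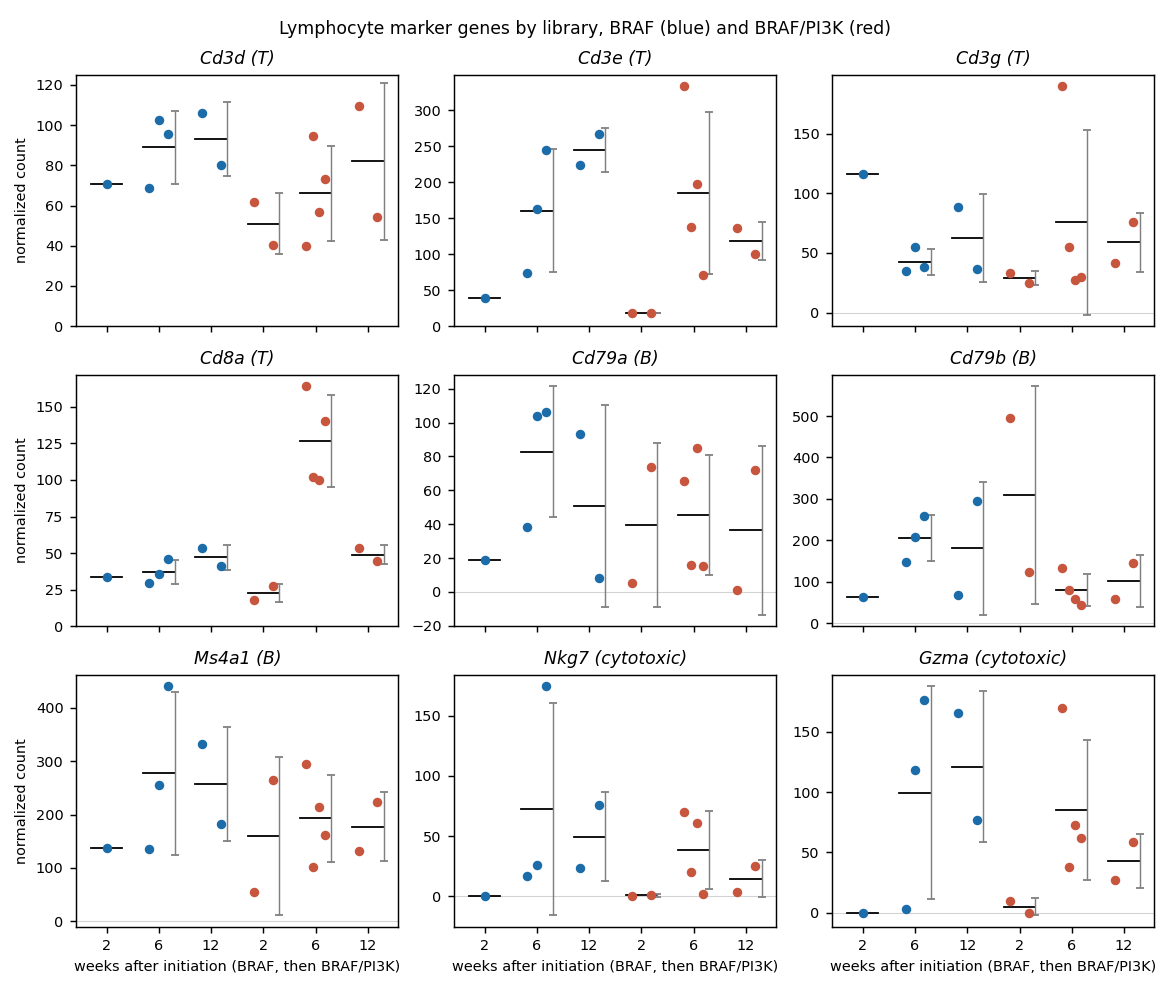
Normalized counts of the 9 genes in the 14 BRAF (blue) and BRAF/PI3K (red) libraries, by weeks after initiation. Each point is a library, each black bar the group mean and each grey bar 1 SD, with no SD for the single BRAF library at 2 weeks. Nkg7 lies at 0 to 1.43 in all 3 libraries at 2 weeks, and Cd8a lies at 99.9 to 164 in BRAF/PI3K at 6 weeks.

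Of the 9 genes, Gzma, Nkg7 and Cd3e had the largest log2 fold changes from 2 to 6 weeks, Cd8a the next and Cd79a the next again, at 1.14 ± 1.10. None passed the test across all genes, and differences between genes in these changes were not tested. Cd3e was 38.9 in the BRAF library at 2 weeks and 18.1 and 18.6 in the BRAF/PI3K libraries. At 6 weeks it was 73.8, 163 and 244 in BRAF and 334, 138, 198 and 70.6 in BRAF/PI3K. Every library at 6 weeks was above every library at 2 weeks. At 12 weeks Cd3e was 223 and 267 in BRAF and 137 and 100.3 in BRAF/PI3K, again all above 2 weeks.

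Nkg7 was listed at 0 in the BRAF library at 2 weeks, and at 0 and 1.43 in BRAF/PI3K. Those 3 libraries had 20527, 19803 and 21377 genes above 0, and the first 2 of these counts were the lowest of the 14 libraries. With depth unknown, a 0 for Nkg7 or Gzma cannot be told apart from a low level that was missed. At 6 weeks Nkg7 was 17.2, 26.4 and 174 in BRAF and 69.7, 20.3, 61.3 and 2.20 in BRAF/PI3K. The groups did not overlap, though the lowest library at 6 weeks lay close to the highest at 2 weeks. Nkg7 was 23.3 and 76.1 in BRAF and 3.86 and 25.5 in BRAF/PI3K at 12 weeks. Gzma was 0 in BRAF and 10 and 0 in BRAF/PI3K at 2 weeks. It reached 3.19, 119 and 177 in BRAF and 170.0, 37.7, 72.8 and 61.9 in BRAF/PI3K at 6 weeks, so that 6 of 7 libraries were above all of those at 2 weeks. At 12 weeks Gzma was 165 and 76.8 in BRAF and 26.9 and 58.8 in BRAF/PI3K.

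The sequences just upstream of these 3 genes are shown because their log2 fold changes from 2 to 6 weeks were the largest of the 9. That of Cd3d, where the change was 0.33 ± 0.36, is shown for comparison. RefSeq windows (GRCm38.p6, 250 bases before to 50 after the start, on the strand of the gene) were at hand for 7 of the 9 genes. Capitals mark matches, on either strand, to a T-box motif (AGGTGTGA), a RUNX motif (TGTGGT), an ETS motif (ACTTCC) or an E-box (CANCTG). T-box and E-box letters can share bases, but no matches below overlap.
Cd3e, chr9:45009562-45009861, minus strand: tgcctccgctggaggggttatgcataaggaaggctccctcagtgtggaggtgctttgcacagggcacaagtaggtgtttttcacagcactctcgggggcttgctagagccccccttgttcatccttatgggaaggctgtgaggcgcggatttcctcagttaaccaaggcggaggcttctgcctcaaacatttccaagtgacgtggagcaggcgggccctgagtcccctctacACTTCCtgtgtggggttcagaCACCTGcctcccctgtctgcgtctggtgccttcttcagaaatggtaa
Nkg7, chr7:43436888-43437187, plus strand: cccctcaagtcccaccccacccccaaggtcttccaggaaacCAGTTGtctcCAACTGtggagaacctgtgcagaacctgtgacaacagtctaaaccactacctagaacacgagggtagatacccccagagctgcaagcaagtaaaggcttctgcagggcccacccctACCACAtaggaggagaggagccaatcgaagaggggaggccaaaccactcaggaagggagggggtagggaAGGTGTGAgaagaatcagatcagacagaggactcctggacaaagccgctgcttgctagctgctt
Gzma, chr13:113100932-113101231, minus strand: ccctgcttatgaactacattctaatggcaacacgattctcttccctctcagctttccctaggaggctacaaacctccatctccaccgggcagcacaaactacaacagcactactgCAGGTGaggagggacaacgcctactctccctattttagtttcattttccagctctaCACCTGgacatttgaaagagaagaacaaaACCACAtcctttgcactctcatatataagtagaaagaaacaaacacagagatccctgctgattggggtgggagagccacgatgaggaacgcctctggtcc
Cd3d, chr9:44981536-44981835, plus strand: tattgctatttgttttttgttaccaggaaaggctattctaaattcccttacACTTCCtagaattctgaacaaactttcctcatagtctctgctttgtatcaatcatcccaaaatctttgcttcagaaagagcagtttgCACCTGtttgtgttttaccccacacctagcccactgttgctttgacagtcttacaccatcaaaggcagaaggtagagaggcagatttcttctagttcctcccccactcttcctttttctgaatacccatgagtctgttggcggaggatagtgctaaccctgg

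The window of Nkg7 held 1 T-box match, 1 RUNX match and 2 E-boxes, and that of Gzma held 1 RUNX match and 2 E-boxes. Cd3e and Cd3d each had 1 ETS match and 1 E-box. Among all 32851 windows of this length, 1.28% held the T-box motif, 16.8% the RUNX motif, 23.8% the ETS motif and 51.4% an E-box. A TATA box (TATAAA) was found in 13.6% of them and in none of the 7. A match is no more than these letters in this window.

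By annotation (GENCODE vM21, GRCm38), Cd3g (chr9:44969572-44980431, minus strand) and Cd3d (chr9:44981786-44987339, plus strand) are divergent neighbors 1354 bases apart. Cd3e (chr9:44998740-45009627, minus strand) lies 11400 bases beyond Cd3d. Cd3e is overlapped by 2 other annotated genes, of which 1 is antisense, and Ms4a1 by 1 antisense gene. The levels of those overlapping genes were not analysed here, and without a stated strand setting their reads cannot be told apart from those of Cd3e or Ms4a1. No 31-base stretch of Nkg7, Gzma or Cd79b was found in transcripts of another gene, against 2.72% of the stretches of Cd3e and 12.2% of those of Cd79a.

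The steps were tested with limma, which fits each gene across all libraries, on log2(normalized count + 1), with genotype in the model and p-values adjusted by the Benjamini-Hochberg method over 17558 genes with a mean of at least 10. A fold change on this scale understates that of a low gene. From 2 to 6 weeks, none of the 9 genes passed an adjusted p of 0.05, in a comparison that called 9 genes (0.0513%). The log2 fold changes were 2.59 ± 0.49 (SE) for Cd3e (adjusted p = 0.0963), 4.43 ± 1.04 for Nkg7 (adjusted p = 0.151), 4.78 ± 1.10 for Gzma (adjusted p = 0.142) and 1.56 ± 0.47 for Cd8a (adjusted p = 0.231). These 4 of 9 had an unadjusted p under 0.05, as did 11.9% of all genes. Nkg7 and Gzma, with means of 0.478 and 3.33 at 2 weeks, passed the filter through the later weeks, where their means were 53.1 and 91.6 (6 weeks) and 32.2 and 82.0 (12 weeks). Nothing is therefore read from counts of members against 2 weeks that include them. Without BRAF/PI3K replicate 1 at 6 weeks, the library with the highest Cd3e, Cd3e passed with a log2 fold change of 2.34 (adjusted p = 0.0498).

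Gene by gene, an exact permutation test (two-sided) over the 7 libraries at 6 weeks and the 3 at 2 weeks, which cannot go below p = 0.00833, gave that value for Cd3e and for Nkg7. The same exact test gave p = 0.0167 for Gzma, p = 0.05 for Cd8a and p = 0.233 or more for each of the other 5. In that test 2 of the 9 genes, Cd3e and Nkg7, had every library at 6 weeks above every library at 2 weeks, as did 1.49% of all genes, and none had every library below (1.61%). As Nkg7 passed the filter through the later weeks, nothing is read from that count. Leaving out single libraries, p stayed at 0.0278 or below for Cd3e and Nkg7 and reached 0.0556 for Gzma without BRAF/PI3K replicate 2 at 2 weeks. For Cd3e and Nkg7, whose weeks did not overlap, these values were set largely by the number of libraries and are no check of robustness. This test was added after the values were seen and was run on 9 genes with no correction.

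Between 2 and 12 weeks, Cd3e rose by 2.71 ± 0.55 on the log2 scale (limma adjusted p = 0.0381) and was the 1 gene of the 9 to pass, in a comparison that called 138 genes (0.786%). Gzma changed by 4.98 ± 1.22 (adjusted p = 0.0653) and Nkg7 by 3.89 ± 1.16 (adjusted p = 0.111), so that 3 of 9 had an unadjusted p under 0.05, as did 17.1% of all genes. Since 2 of the 3 are Gzma and Nkg7, nothing is read from that count. The call for Cd3e was lost with no filter on low genes (limma adjusted p = 0.0606) and with sex as a factor (adjusted p = 0.0625), where sex was taken from the labels that Kdm5d went against in 2 of the 4 libraries at 12 weeks. It was also lost on leaving out any 1 of 8 libraries. Its adjusted p was 0.0628 without BRAF replicate 2 at 6 weeks, 0.106 without BRAF replicate 2 at 12 weeks, 0.125 and 0.106 without BRAF/PI3K replicates 1 and 2 at 2 weeks, 0.0526 and 0.0576 without BRAF/PI3K replicates 2 and 3 at 6 weeks, and 0.119 and 0.0677 without BRAF/PI3K replicates 1 and 2 at 12 weeks. Without both BRAF/PI3K libraries at 12 weeks, whose sex labels went against their Y-linked genes, it was 0.363. Its log2 fold change stayed between 2.57 and 2.99 when any library was left out. Gzma passed without BRAF replicate 1 at 6 weeks (adjusted p = 0.0381). Cd3e, Cd8a, Nkg7 and Gzma had every library at 12 weeks above every library at 2 weeks, 4 of 9 genes, as did 6.5% of all genes, and none had every library below (6.71% of all genes). Nkg7 and Gzma are again among these, and nothing is read from the count.

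Between 6 and 12 weeks none of the 9 genes passed, and limma called no gene at all (0%), with 933 (5.31%) at an unadjusted p under 0.05. The log2 fold changes were between -1.43 ± 1.00 for Cd79a and 0.21 ± 1.00 for Gzma, and none of the 9 had an unadjusted p under 0.05. The step for Cd3e was 0.12 ± 0.45.

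The other CD3 chains had smaller changes. Cd3d was 70.6 in BRAF and 61.6 and 40.4 in BRAF/PI3K at 2 weeks, and 68.6, 103, 95.5, 39.6, 94.6, 56.6 and 73.3 in the 7 libraries at 6 weeks, in the order above. Cd3g was 116 in BRAF and 33.5 and 24.9 in BRAF/PI3K at 2 weeks, and ran from 27.1 to 190.0, with a median of 38.2, at 6 weeks. The weeks overlapped for both genes. Their log2 fold changes from 2 to 6 weeks were 0.33 ± 0.36 for Cd3d and 0.05 ± 0.62 for Cd3g, where limma gave adjusted p = 0.780 and 0.987. At 12 weeks Cd3d was 106, 80.1, 109 and 54.3 and Cd3g was 88.4, 36.7, 41.5 and 76.2, with log2 fold changes against 2 weeks of 0.51 ± 0.40 and 0.26 ± 0.69.

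The B cell genes overlapped between 2 and 6 weeks as well, and they varied widely within groups. Ms4a1 was 136 in BRAF and 55.0 and 265 in BRAF/PI3K at 2 weeks. It ran from 102 to 441, with a median of 213, at 6 weeks, and was 333, 182, 132 and 223 at 12 weeks. Its log2 fold change from 2 to 6 weeks was 0.67 ± 0.49 (limma adjusted p = 0.645). Cd79a was 18.9 in BRAF and 5.24 and 73.8 in BRAF/PI3K at 2 weeks, ran from 15.2 to 106 at 6 weeks, and was 93.1, 8.45, 1.08 and 71.7 at 12 weeks. Both BRAF/PI3K libraries at 2 weeks were unlike each other, with the higher Cd79a and Ms4a1 in replicate 2 and the higher Cd79b, 495 against 123, in replicate 1. Cd79b was 62.9 in BRAF at 2 weeks, and its log2 fold change from 2 to 6 weeks was -0.53 ± 0.69 (adjusted p = 0.821).

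Other genes of these cell types, none of them among the 9, were read from lists of markers. From 2 to 6 weeks, limma called none of 22 T cell genes, of 23 B cell genes or of 13 of 20 cytotoxic and NK genes that passed the filter. All 13 cytotoxic and NK genes had a positive log2 fold change, with a median of 1.298, where over all genes 51.4% were positive with a median of 0.018. A gene near 0 at 2 weeks can pass the filter only through the later weeks, so nothing is read from that count. Il2rb, a receptor chain for IL-2 and IL-15, changed by 2.30 ± 0.58 (adjusted p = 0.166), Klrb1c, which encodes the NK1.1 antigen, by 3.47 ± 0.98 (adjusted p = 0.209), and Gzmb, granzyme B, by 3.55 ± 1.17 (adjusted p = 0.268). The T cell list was positive for 14 of 22 genes, with a median of 0.63, and the B cell list for 14 of 23, with a median of 0.42. Within the T cell list, Cd2, an adhesion receptor that NK cells also carry, changed by 3.17 ± 1.01 (adjusted p = 0.254) while Cd247, the CD3 zeta chain, changed by 0.52 ± 0.55. Klrb1c, Gzmb and Cd2 were named after their values were seen.

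Summed over 15 leukocyte genes, the level was 7158 to 11251 in the 3 libraries at 2 weeks, 9014 to 16952 at 6 weeks and 14780 to 22605 at 12 weeks. None of the 15 passed limma's test from 2 to 6 weeks, and 13 had a positive log2 fold change, with a median of 0.45. Ptprc changed by 1.10 ± 0.41 (adjusted p = 0.315). Of the 12 AT2 genes none passed, and all 12 had a positive log2 fold change from 2 to 6 weeks, with a median of 1.65, and their sum was 843525 in the BRAF library at 2 weeks but 84095 and 177183 in the BRAF/PI3K libraries. Between 2 and 12 weeks, the comparison in which Cd3e passed, all 12 AT2 genes again had a positive log2 fold change, with a median of 2.32, and limma called 1 of them, Etv5 (1.53 ± 0.29, adjusted p = 0.0378). There 13 of 15 leukocyte genes were positive (median 0.86) with 8 at an unadjusted p under 0.05, against 17.1% of all genes. Of 14 macrophage genes 13 were positive (median 1.37), while all 10 endothelial genes (median -0.99) and 9 of 10 fibroblast genes (median -1.34) were negative. An unadjusted p under 0.05 was found for 6 fibroblast genes and 1 endothelial gene, all lower, and for 7 higher macrophage genes and 1 lower. Over all genes 51.5% were positive, with a median of 0.023. The part of these shifts in the changes of Cd3e, Nkg7 and Gzma was not tested.

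The comparison of genotypes asked whether activated PI3K changes these signals in BRAF tumor cells. Over all weeks none of the 9 genes passed, in a comparison that called 4 of 17558 genes (0.0228%), and none had an unadjusted p under 0.05, against 6.83% of all genes. 8 of the 9 had a negative log2 fold change, BRAF/PI3K against BRAF, where 51.8% of all genes had a positive one, and Cd8a had a positive one of 0.70 ± 0.46. The lowest was -1.24 ± 1.18 for Nkg7. In the lists of other genes, 10 of 22 T cell, 10 of 23 B cell and 5 of 13 cytotoxic and NK genes were positive. All 12 AT2 genes were negative (median -0.95), while 10 of 10 endothelial (median 0.91) and 12 of 14 macrophage genes (median 0.81) were positive. The part of these shifts in the values of the 9 genes was not tested. Gzma had no steady direction. Its mean was lower in BRAF/PI3K over all weeks (54.8 against 90.1), but with labels exchanged within weeks its log2 difference was 0.28 (exact permutation p = 0.775), and this ran from -0.54 to 0.66 on leaving out single libraries. No gene of the 9 had groups that did not overlap, against 0.0854% of all genes entirely higher and 0.125% entirely lower. Over all weeks Cd3d had the smallest exact permutation p, 0.0793, which ran from 0.0221 to 0.149 on leaving out single libraries.

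Cd8a, the co-receptor chain of killer T cells, stood apart by genotype at 6 weeks, though it did not pass limma's test. It was 29.5, 35.6 and 45.9 in the 3 BRAF libraries and 164, 102, 99.9 and 141 in the 4 BRAF/PI3K libraries. The groups did not overlap. The log2 fold change was 1.74 ± 0.39 (limma adjusted p = 0.674, unadjusted p = 0.000800), and the exact permutation test gave p = 0.0286, the smallest that 4 against 3 allows. At 2 weeks Cd8a was 33.7 in BRAF and 18.3 and 27.3 in BRAF/PI3K, and at 12 weeks it was 53.2 and 40.9 in BRAF and 53.5 and 44.4 in BRAF/PI3K.

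The genotypes overlapped at 12 weeks, and at 2 weeks the BRAF library was above both others. At 2 weeks the BRAF library was labelled female and both BRAF/PI3K libraries male, with Kdm5d at 394 against 2965 and 2090, and the effects of sex and of genotype cannot be told apart at that week. In the limma fit, the genotype effect at 6 weeks exceeded that at 2 weeks by 2.31 ± 0.74 (adjusted p = 0.416, unadjusted p = 0.00891), and the effect at 12 weeks was lower than at 6 weeks by a log2 change of -1.68 ± 0.65 (adjusted p = 1.000, unadjusted p = 0.0234). Both tests were added after the values were seen, and they called no gene at all (0%), with 1571 (8.95%) and 504 (2.87%) genes at an unadjusted p under 0.05. The effects at 12 and 2 weeks differed for none of the 9 at an unadjusted p under 0.05, with 9.1% of all genes there. With labels exchanged within weeks only, the exact permutation test gave p = 0.0444 for Cd8a. On leaving out single libraries, p ran from 0.00952 to 0.0778, the highest without BRAF replicate 1 at 6 weeks. This test was run on 9 genes with no correction, and the next smallest p was 0.106, for Cd3d. Within 6 weeks, leaving out a library gave p = 0.0667 to 0.100, as the exact test with so few libraries can go no lower than 0.0667.

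Cd79b went the other way at 6 weeks. It was 148, 207 and 259 in BRAF and 132, 80.1, 58.8 and 44.2 in BRAF/PI3K, and every BRAF/PI3K library was below every BRAF library. The log2 fold change was -1.44 ± 0.63 (limma adjusted p = 1.000), with an exact permutation p = 0.0571. At 2 weeks, where BRAF had 62.9 and BRAF/PI3K 495 and 123, the log2 fold change was 1.96 ± 1.02 (adjusted p = 0.427). The difference between the weeks was -3.40 ± 1.20 (adjusted p = 0.460), with sex and genotype not separable at 2 weeks.

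At 6 weeks 1 of the 9 genes lay entirely higher in BRAF/PI3K, against 2.63% of all genes, and 1 entirely lower, against 2.6%. None of the 9 passed limma's test there, in a comparison that called 4 genes (0.0228%), and 2 of the 9 had an unadjusted p under 0.05, against 4.24% of all genes. None of the 9 passed at 2 weeks, where 3 genes were called (0.0171%), or at 12 weeks, where 2 were called (0.0114%). None had an unadjusted p under 0.05 at either week, against 13.5% and 3.76% of all genes. At 2 weeks the fit takes the single BRAF library to vary like the other groups. The log2 fold changes of the 9 at 12 weeks were between -1.93 ± 1.55 for Nkg7 and 0.06 ± 0.52 for Cd8a.

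**Figure D2:**
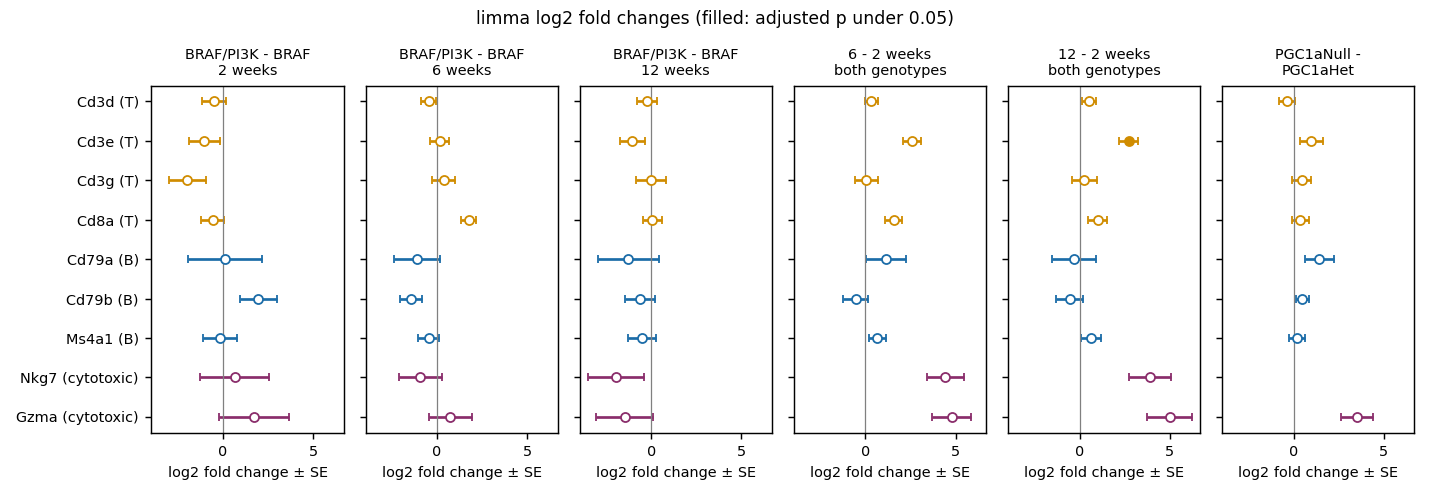
Log2 fold changes (x axis, limma, ± SE) of the 9 genes (y axis), T cell genes in ochre, B cell genes in blue and cytotoxic genes in purple. Filled points passed an adjusted p of 0.05. The 1 filled point is Cd3e between 2 and 12 weeks at 2.71, and Nkg7 has no point in the last panel, where its mean was below 10.

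The lists around Cd8a and Cd79b were near the background at 6 weeks. Among 22 other T cell genes, 13 were positive, BRAF/PI3K against BRAF, with a median log2 fold change of 0.11 and 0 called, and among 23 B cell genes 10 were positive with a median of -0.32 and 0 called. Over all genes tested 50.5% were positive, with a median of 0.0043. At 2 weeks, against 1 BRAF library, 18 of 23 B cell genes were positive, with a median of 1.41. There 11 of 22 T cell genes were positive, with a median of 0.051, as were 50.6% of all genes. At 6 weeks Thy1, a surface protein of T cells, changed by 0.20 ± 0.27, and Cd4, the co-receptor of helper T cells, by 0.07 ± 0.76. Foxp3, the factor of regulatory T cells, changed by -3.40 ± 1.00 (limma adjusted p = 0.921), and Cxcr5, the chemokine receptor that guides B cells to follicles, by -3.82 ± 1.39 (adjusted p = 1.000), both named after their values were seen.

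To set T against B signal within a library, the normalized counts of the 4 T cell genes were summed and divided by the sum of the 3 B cell genes. The quotient serves to compare libraries and not to count cells, since the genes differ in length. At 2 weeks it was 1.19 in BRAF and 0.237 and 0.241 in BRAF/PI3K, so the T signal was the smaller share in both BRAF/PI3K libraries, both male against a female BRAF library. At 6 weeks it was 0.642, 0.631 and 0.5259 in BRAF and 1.48, 1.96, 1.07 and 1.42 in BRAF/PI3K, so that the genotypes did not overlap at either week and lay in opposite order. This separation was not seen without Cd8a and Cd79b, described above. Leaving out these 2 genes, a choice made after the values were seen, the quotients were 1.45 in BRAF and 1.88 and 0.248 in BRAF/PI3K at 2 weeks. At 6 weeks they were 1.02, 0.895 and 0.691 in BRAF and 1.57, 2.43, 0.942 and 0.983 in BRAF/PI3K, and the genotypes overlapped at both weeks. Cd79b alone gave 495 of the B sum of 555 in BRAF/PI3K replicate 1 at 2 weeks. In the lists of other genes, the B cell sum at 2 weeks was 2180 in BRAF and 5234 and 5267 in BRAF/PI3K. The T cell sum was 1524 in BRAF and 1299 and 1891 in BRAF/PI3K. At 6 weeks the genotypes overlapped for both lists. At 12 weeks the quotient of all 7 genes was 0.956 and 0.877 in BRAF and 1.80 and 0.624 in BRAF/PI3K, and the genotypes overlapped.

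Within BRAF/PI3K, the T sum was 131 and 111 at 2 weeks and 728, 389.5, 381 and 314 at 6 weeks, and the B sum was 555 and 462 at 2 weeks and 492, 198, 358 and 221 at 6 weeks. In BRAF the T sum was 259 at 2 weeks and 207, 357 and 424 at 6 weeks, and the B sum was 218 at 2 weeks and 322, 565 and 806 at 6 weeks. Genes of other cells stood apart at 2 weeks too, against 1 BRAF library. All 10 fibroblast genes were higher in BRAF/PI3K, with a median log2 fold change of 1.10, and 12 of 14 macrophage genes, with a median of 1.96. The sum of 10 endothelial genes was 7266 in the BRAF library and 60032 and 61885 in the BRAF/PI3K libraries, and all 12 AT2 genes were lower in BRAF/PI3K, with a median log2 fold change of -2.29, where 50.6% of all genes were higher. The part of those shifts in the quotients was not tested.

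**Figure D3:**
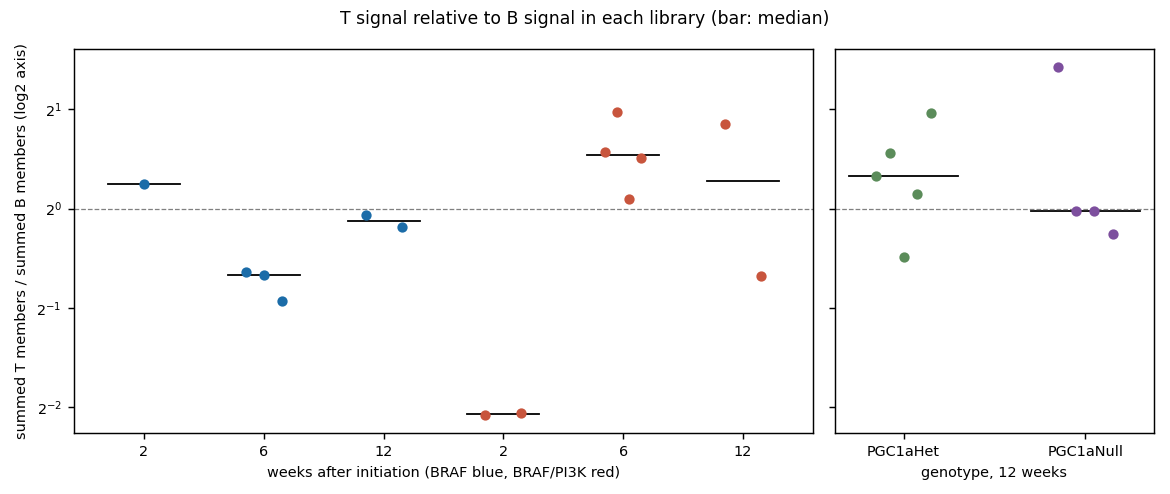
Sum of Cd3d, Cd3e, Cd3g and Cd8a divided by the sum of Cd79a, Cd79b and Ms4a1 in each library, on a log2 axis, with the group median as a bar. BRAF/PI3K (red) lies at 0.237 and 0.241 at 2 weeks and at 1.07 to 1.96 at 6 weeks, while BRAF (blue) lies at 1.19 and at 0.5259 to 0.642, a separation not seen without Cd8a and Cd79b. PGC1aHet (green) and PGC1aNull (purple) overlap.

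Pairs of the 9 genes were compared over the 14 libraries by Pearson's r and Spearman's rho of log2(normalized count + 1), with permutation p-values adjusted over the 36 pairs. 4 pairs passed. Cd3e went with Nkg7 (r = 0.88, adjusted p = 0.00216, rho = 0.92, adjusted p = 0.00108) and with Gzma (r = 0.83, adjusted p = 0.0131, rho = 0.87, adjusted p = 0.00252). Nkg7 went with Gzma (r = 0.74, adjusted p = 0.0236, rho = 0.85, adjusted p = 0.00408), and Cd79a with Ms4a1 (r = 0.76, adjusted p = 0.0229, rho = 0.82, adjusted p = 0.00522). Without the 2 libraries farthest from the median of the gene named first, r was 0.85, 0.84, 0.65 and 0.76.

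The libraries at 2 weeks were the lowest for Cd3e and Nkg7 and among the 4 lowest for Gzma. The pairs were therefore also read without these 3 libraries, a choice made after the values were seen. Over the other 11 libraries, r was 0.74 for Cd3e with Nkg7, 0.71 for Cd3e with Gzma, 0.45 for Nkg7 with Gzma and 0.71 for Cd79a with Ms4a1. By Pearson's r no pair then passed, and the permutation adjusted p was 0.110 for both pairs of Cd3e. By Spearman's rho 4 pairs passed under permutation. 3 of them were among the former 4, Cd3e with Nkg7 (rho = 0.85, adjusted p = 0.0308), Cd3e with Gzma (rho = 0.79, adjusted p = 0.0492) and Cd79a with Ms4a1 (rho = 0.81, adjusted p = 0.0492). The other was a B cell gene with a cytotoxic gene, Ms4a1 with Gzma (rho = 0.89, permutation adjusted p = 0.0205, r = 0.75, adjusted p = 0.110), which had not passed over the 14 libraries (rho = 0.66, adjusted p = 0.0845). Within genotypes, Cd3e and Nkg7 had r = 0.90 in BRAF (permutation, adjusted p = 0.171) and r = 0.88 in BRAF/PI3K (permutation, adjusted p = 0.0781). Cd3d and Cd3g, the neighbors on chromosome 9, had r = -0.09 over the 14 libraries, and Cd79a and Cd79b, which form 1 dimer in the cell, had r = 0.03. Over the 14 libraries the median r was 0.31 for the 6 pairs of T cell genes. It was 0.037 for the 12 pairs of a T with a B cell gene and 0.033 for the 3 pairs of B cell genes. Without the libraries at 2 weeks these medians were 0.034, 0.041 and 0.38, and the T cell pairs no longer stood above the mixed pairs. In the second table the medians were 0.53, 0.29 and 0.0083. Over the 9 libraries of the second table no pair passed by either measure. Nkg7 with Gzma had r = 0.86 (permutation adjusted p = 0.158) and rho = 0.90 (permutation adjusted p = 0.0595), Cd3e with Nkg7 r = 0.43 (permutation adjusted p = 0.481) and Cd79a with Ms4a1 r = 0.53 (permutation adjusted p = 0.451).

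**Figure D4:**
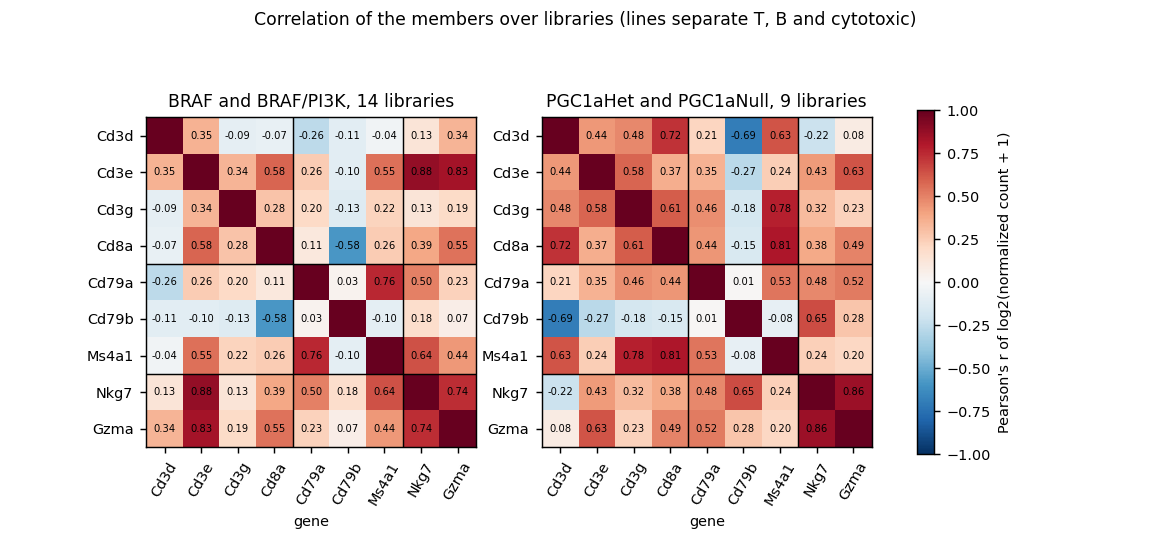
Pearson's r of log2(normalized count + 1) between the 9 genes over the 14 BRAF and BRAF/PI3K libraries and over the 9 PGC1aHet and PGC1aNull libraries, with color from -1 to 1. In the first panel Cd3e with Nkg7 (0.88) and with Gzma (0.83) are the highest. In the second, Nkg7 with Gzma (0.86) is the highest, and no pair passed there.

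The genes outside the 9 whose log2 values were most like the mean of the 4 T cell genes over the 14 libraries were Klrb1c (r = 0.85), Mcrs1 (r = 0.83), Nhej1 (r = 0.82), Zfp707 (r = 0.82) and Gm15682 (r = 0.82). Over the 9 libraries of the second table, r was 0.90 for Klrb1c, an NK cell receptor, but 0.07 for Zfp707 and -0.55, -0.30 and -0.34 for Mcrs1, Nhej1 and Gm15682. Most like the mean of the 3 B cell genes were Sstr4 (r = 0.91), Ppbp (r = 0.87), Dazap2 (r = 0.86), Igkv6-32 (r = 0.86) and Abca17 (r = 0.85). Igkv6-32 is an immunoglobulin light chain segment and Ppbp a platelet chemokine. Their r over the 9 libraries was 0.47, -0.05, -0.63, 0.13 and -0.52 in the same order. These genes were the highest of 17558, and r is given here as a description.

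The second table asked whether loss of PGC1a changes the same signals in BRAF tumors at 12 weeks. Both cytotoxic genes were higher in PGC1aNull than in PGC1aHet, and the T and B cell genes overlapped. Gzma was 48.6, 11.6, 33.1 and 69.5 in the 4 PGC1aNull libraries and 0, 4.50, 0, 6.09 and 5.94 in the 5 PGC1aHet libraries. Nkg7 was 11.9, 10.98, 11.9 and 38.6 in PGC1aNull and 1.15, 3.26, 0, 3.47 and 0 in PGC1aHet. For both genes every PGC1aNull library was above every PGC1aHet library.

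**Figure D5:**
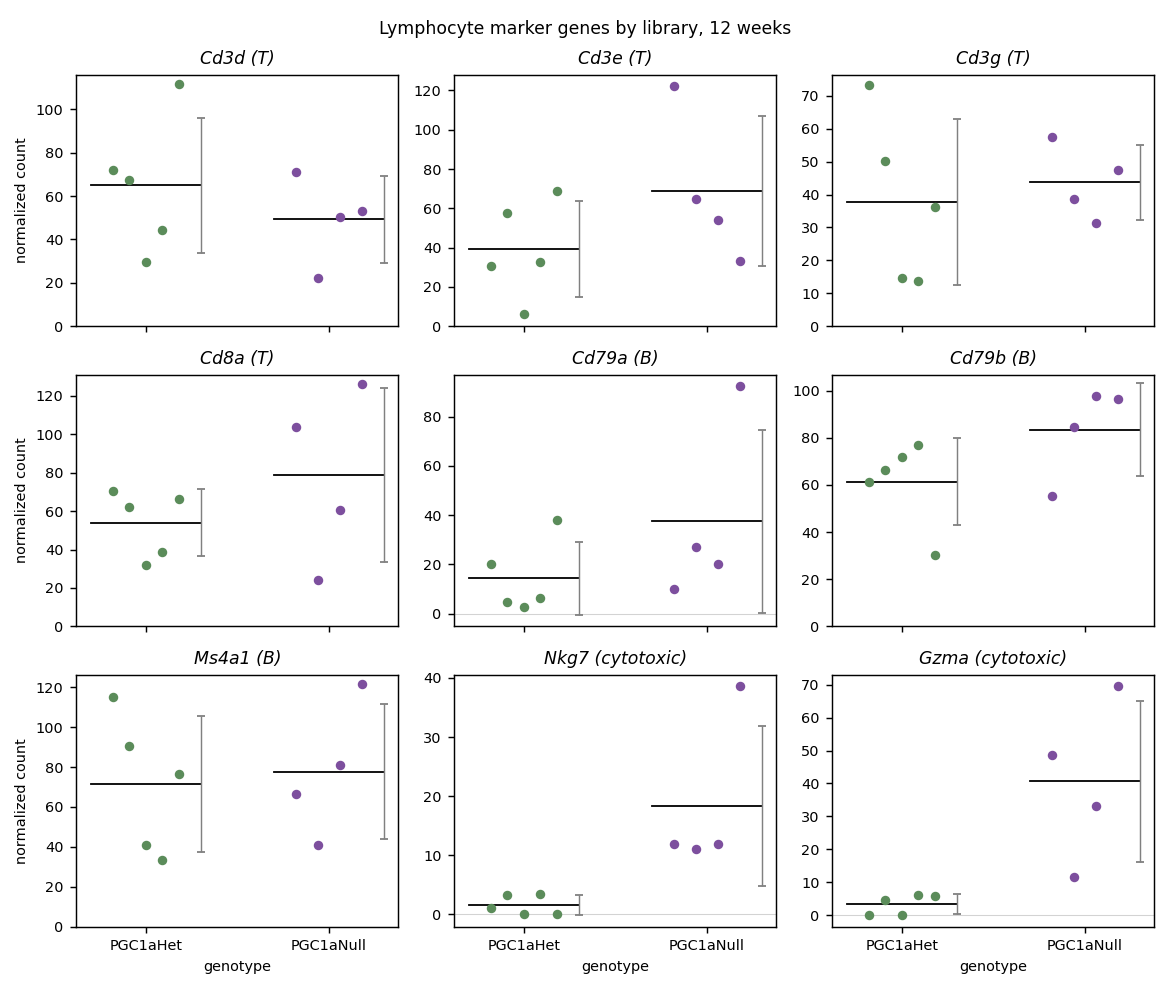
Normalized counts of the 9 genes in the 5 PGC1aHet (green) and 4 PGC1aNull (purple) libraries at 12 weeks. Each point is a library, black bars are group means and grey bars 1 SD. Gzma lies at 11.6 to 69.5 in PGC1aNull and at 0 to 6.09 in PGC1aHet.

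The exact permutation test (two-sided) gave p = 0.00794 for Gzma and for Nkg7, the smallest that 5 against 4 allows. It was run gene by gene with no correction over the genes tested. On leaving out single libraries, p ran from 0.0179 to 0.0357. As the groups did not overlap, these values were set largely by the number of libraries and are no check of robustness. The differences of mean log2 values were 3.51 and 3.00. In limma's fit over 17424 genes, Gzma had a log2 fold change of 3.51 ± 0.89 (adjusted p = 0.562, unadjusted p = 0.00168), and Nkg7 fell below the filter. 0 of the 8 genes tested passed, in a comparison that called no gene (0%), with 667 genes at an unadjusted p under 0.05 (3.83%). 1 of the 8, Gzma, had every PGC1aNull library above every PGC1aHet library, as did 0.941% of all genes. It passed the filter through PGC1aNull, with a mean of 40.7 against 3.31 in PGC1aHet, so nothing is read from that count.

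For the T cell genes the genotypes overlapped. Cd3d was 71.2, 22.4, 50.5 and 53.1 in PGC1aNull and 71.8, 67.5, 29.7, 44.5 and 112 in PGC1aHet, a log2 fold change of -0.37 ± 0.45. Cd3e was 122, 65.0, 54.1 and 33.1 in PGC1aNull and 30.8, 57.7, 6.35, 32.6 and 68.9 in PGC1aHet, a change of 0.98 ± 0.62. Cd3g changed by 0.46 ± 0.53 and Cd8a by 0.36 ± 0.48. Cd8a was 104, 24.1, 60.7 and 126 in PGC1aNull and 32.2 to 70.4 in PGC1aHet.

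The B cell genes overlapped as well. Cd79a was 9.89, 27.2, 20.3 and 92.4 in PGC1aNull and 19.96, 4.51, 2.82, 6.26 and 37.9 in PGC1aHet, a log2 fold change of 1.42 ± 0.82. Cd79b was 55.3, 84.4, 97.8 and 96.2 against 61.0, 66.5, 71.8, 77.1 and 30.3, a change of 0.47 ± 0.36. Ms4a1 changed by 0.16 ± 0.44. In limma's fit the adjusted p was 0.998 for each of these 7 T and B cell genes, and the exact permutation p was 0.151 or more. The quotient of T over B sums was 2.69, 0.984, 0.987 and 0.836 in PGC1aNull and 1.26, 1.47, 0.715, 1.11 and 1.95 in PGC1aHet.

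In the lists of other genes of these cell types none was called. All 20 B cell genes tested had a positive log2 fold change, with a median of 0.84, as did all 8 of 20 cytotoxic and NK genes that passed the filter, with a median of 0.57, and 20 of 21 T cell genes, with a median of 0.49. Over all genes 51.1% were positive, with a median of 0.011. An unadjusted p under 0.05 was found for 7 of the 20 B cell genes, 2 of the 21 T cell genes and 0 of the 8 cytotoxic and NK genes, against 3.83% of all genes. Genes that are low in PGC1aHet could pass the filter through PGC1aNull alone, as Gzma did, so the counts of positive genes support nothing, above all for the cytotoxic and NK list, of which 8 of 20 passed. Pou2af1, a coactivator of B cell transcription, changed by 2.40 ± 0.61 (limma adjusted p = 0.579) and Cd2 by 2.72 ± 0.94 (adjusted p = 0.998). Pou2af1 was named after its values were seen.

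Markers of other cells were read beside these lists, and none was called. An unadjusted p under 0.05 was found for 10 of 10 endothelial and 7 of 15 leukocyte genes. It was found for 5 of 9 fibroblast, 5 of 14 macrophage, 0 of 6 erythroid and 0 of 12 AT2 genes, against 3.83% of all genes. Positive log2 fold changes were found for 14 of 15 leukocyte genes (median 0.85), 12 of 14 macrophage genes (0.95), 10 of 10 endothelial genes (2.12) and 9 of 9 fibroblast genes (1.26). They were found for 3 of 6 erythroid genes (0.12) and 1 of 12 AT2 genes (-0.21). Ptprc was 525 to 1094 in PGC1aNull and 131 to 525 in PGC1aHet, and it changed by 1.40 ± 0.36 on the log2 scale (limma adjusted p = 0.577). The sum of 15 leukocyte genes was 6339 to 9161 against 3766 to 6677, that of 10 endothelial genes 928 to 1885 against 232 to 727, and that of 14 macrophage genes 2936 to 13339 against 909 to 5039. The endothelial sums did not overlap, and the other 2 did. The sum of 12 AT2 genes was 450317 to 698629 against 574031 to 720396. The part of these shifts in the values of Gzma and Nkg7 was not tested.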

How the data were processed

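RNA of tdTomato+ lung tumor cells was sequenced from 23 mouse samples in 8 groups. The authors used Salmon, DESeq2 and FastQC on Galaxy with build GRCm38, versions not given in the sources used here, and deposited 2 tables of normalized counts per gene, used here as a signal, which were normalized separately and are not compared. Their tables of fold changes and p-values were not used. Between 10.1% and 36.2% of values under 20 were whole multiples of a step (tolerance 0.01), so reads could not be recovered and depth is unknown. Genes with a mean of at least 10 were tested on log2(value + 1) with limma 3.58.1 (R 4.3.3), trend, two-sided, Benjamini-Hochberg over all genes, called at an adjusted p of 0.05. Fits held genotype alone, a mean per genotype and week, or week and genotype. Exact permutation tests and correlations (100000 permutations for more than 9 libraries) used Python 3.11.15 and scipy 1.17.1. Exact permutation p-values were not corrected over the 9 genes. The fits were tested on simulated data.

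P-values weigh a difference or a correlation against the spread between these samples. The 9 genes and all marker lists were chosen with earlier results of these data known. All 9 genes are named, list genes if past the test or among the 6 highest of a list, and the 5 genes most like the T or B cell genes by Pearson's r, with exceptions said in place. Alternatives were a pseudocount of 4, a mean of 40 or no filter, quantile normalization, sex as a factor, a replicate block and each library left out. Tests of 6 and 12 against 2 weeks by permutation, pairs without 2 weeks, weeks without both BRAF/PI3K libraries at 12 weeks, a crossed block, the T over B quotient without Cd8a and Cd79b and differences of the genotype effect between weeks were added after seeing the data.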

Additional observations from a re-analysis of the deposited data

Results flagged for a closer look

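Nkg7 in PGC1aNull replicate 4 was 38.6, and the next highest of the 4 libraries was 11.9. The gap was 0.965 of the range of the group, past Dixon's 95% value. Of 27 sets of 4 or 5 values checked this was the 1 that passed, and chance flags about 1 in 20. Without this library the exact permutation p of Nkg7, PGC1aNull against PGC1aHet, was 0.0357. The groups still did not overlap, so that p was set largely by the number of libraries.

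Cd8a was higher in every BRAF/PI3K library at 6 weeks (log2 fold change 1.74) and lower in both at 2 weeks (-0.57). In limma's fit the difference of these effects was 2.31 ± 0.74 (adjusted p = 0.416). Cd79b moved the opposite way, -1.44 at 6 weeks and 1.96 at 2 weeks, a difference of -3.40 ± 1.20 (adjusted p = 0.460). The log2 quotient of T over B sums differed between the genotypes by 1.28 at 6 weeks and by -2.31 at 2 weeks, and that difference was not tested. Without Cd8a and Cd79b it was 0.68 at 6 weeks and -1.09 at 2 weeks, and the genotypes overlapped at both. At 2 weeks each rests on 1 BRAF library, labelled female, against 2 BRAF/PI3K libraries labelled male, and the effects of sex and of genotype cannot be told apart at that week.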

How the results depend on the processing

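No value reversed a call. Of 1980 limma values of the 9 genes under alternatives, 115 changed sign, none of them past the threshold. Cd3e between 2 and 12 weeks kept its direction in 21 of 21 alternatives and passed in 9. The number of the 9 genes called there was 0 with no filter, with sex as a factor, with the replicate block and without both BRAF/PI3K libraries at 12 weeks, and 0 to 2 with each library left out. From 2 to 6 weeks it was 0 to 1.

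The count of all genes called moved more. With a pseudocount of 4 it was 7 for BRAF/PI3K against BRAF over all weeks, 0 at 2 weeks, 7 at 6 weeks, 4 at 12 weeks and 3 from 2 to 6 weeks. With no filter it was 107, 1 and 16 at 2, 6 and 12 weeks, 4 between 2 and 12 weeks, and 44, 2 and 38 for the genotype effect at 6 less 2, 12 less 6 and 12 less 2 weeks. With quantile normalization it was 0, 7 and 4 at 2, 6 and 12 weeks, 4 from 2 to 6 weeks, and 2 for the genotype effect at 12 less 6 weeks. With sex as a factor it was 0 at 2 weeks, 1 at 6 weeks and 4 from 2 to 6 weeks. Without both BRAF/PI3K libraries at 12 weeks it was 3 from 2 to 6 weeks and 0 between 2 and 12 weeks. The cause was not tested.

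With each library left out, the count ranged from 3 to 9 over all weeks, 0 to 268 at 2 weeks, 1 to 12 at 6 weeks, 2 to 4 at 12 weeks, 1 to 102 from 2 to 6 weeks and 0 to 493 between 2 and 12 weeks. For the genotype effect it ranged from 0 to 30 at 6 less 2, 0 to 1 at 12 less 6 and 0 to 7 at 12 less 2 weeks. Without the single BRAF library at 2 weeks, effects that use it could not be fitted.

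Same-numbered libraries did not deviate together (correlations from -0.467 to 0.211), so the numbers do not pair them. With the replicate block the count of all genes was 0 at 2 weeks, 0 at 6 weeks, 0 from 2 to 6 weeks and 2 between 2 and 12 weeks, and the block changed 1 call among the 9 genes, that of Cd3e (adjusted p = 0.119). With the block crossed at 12 weeks the count was 0 at 2 weeks and 0 at 6 weeks.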
